A study of Mus musculus with 12 samples.

Results

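The genes of the mouse major histocompatibility complex (MHC, called H2 in the mouse) and of the machinery that loads and controls their products were followed in thoracic aorta of ApoE-/- mice given AZ6983, an agonist of the alpha 7 nicotinic acetylcholine receptor (α7nAChR), or vehicle. Members were all rows of the count table whose symbol starts with H2- together with B2m, Cd74, Ciita, Nlrc5, Tap1, Tap2 and Tapbp, which gave 40 of 25284 genes. There were 6 control mice (C1 to C6) and 6 AZ6983 mice (A1 to A6), each a separate library. All 12 mice were male, lacked apolipoprotein E on a C57BL/6 background, ate a high fat diet and were 18 weeks old at the end. Osmotic minipumps under the skin released AZ6983 over 8 weeks, at a daily dose of 50 µmol per kg, and the controls carried pumps with vehicle. Apolipoprotein E is missing in both groups, so both are groups of atherosclerosis-prone mice and no mouse with the gene was analysed here.

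MHC class I molecules sit on nearly every nucleated cell and show peptides from inside the cell to CD8+ T cells. Each pairs a heavy chain such as H2-K1 or H2-D1 with the light chain B2m, and is filled with peptides that Tap1 and Tap2 carry into the endoplasmic reticulum with the help of tapasin (Tapbp). MHC class II molecules are pairs of an alpha and a beta chain, made mainly by dendritic cells, macrophages and B cells, and show peptides taken up from outside to CD4+ T cells. Their assembly needs the invariant chain Cd74 and the peptide exchanger H2-DM. The non-classical genes of the Q, T and M regions encode class I relatives with narrower expression. Nlrc5 and Ciita are the transactivators of class I and class II genes, and act through short promoter elements known as the X and Y boxes.

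By these roles the 40 members were 2 classical class I heavy chains, 21 non-classical class I genes, 4 class II chains, 5 genes of class II peptide loading, 4 genes of the class I light chain and peptide supply, the invariant chain, 2 transactivators and H2-Ke6, which carries an H2- symbol but is not an MHC gene. Of the 40, 36 lie on chromosome 17 between positions 33915899 and 37483552 of GRCm38 (mm10). B2m, Ciita, Nlrc5 and Cd74 lie on other chromosomes.

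The promoters of members from different classes share letters at similar distances, which the following windows show for genes whose levels are described further on. Capitals mark TGANG, the core of the downstream part of the X box, and ATTGG, the core of the Y box. Each window is written 5′ to 3′ on the gene's own strand and comes from RefSeq on GRCm38.p6.
H2-K1, chr17:34000353-34000402, minus strand: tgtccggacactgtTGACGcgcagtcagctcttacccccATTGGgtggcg
H2-D1, chr17:35262979-35263028, plus strand: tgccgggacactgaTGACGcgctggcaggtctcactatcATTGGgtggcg
B2m, chr2:122147595-122147644, plus strand: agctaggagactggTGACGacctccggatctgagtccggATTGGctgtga
H2-M3, chr17:37270174-37270223, plus strand: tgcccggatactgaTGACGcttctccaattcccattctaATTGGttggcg
H2-Aa, chr17:34287861-34287911, minus strand: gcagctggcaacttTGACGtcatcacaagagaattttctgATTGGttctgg
H2-Eb1, chr17:34305770-34305818, plus strand: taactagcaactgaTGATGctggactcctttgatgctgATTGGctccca
H2-Ob, chr17:34238812-34238858, plus strand: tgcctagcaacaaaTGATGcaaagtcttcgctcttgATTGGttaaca
H2-DMb1, chr17:34153091-34153140, plus strand: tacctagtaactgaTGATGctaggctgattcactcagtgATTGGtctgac
H2-DMb2, chr17:34145120-34145169, plus strand: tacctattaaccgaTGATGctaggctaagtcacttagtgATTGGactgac
H2-M9, chr17:36642730-36642791, minus strand: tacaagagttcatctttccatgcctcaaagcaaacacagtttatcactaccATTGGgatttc
H2-Q2, chr17:35342175-35342236, plus strand: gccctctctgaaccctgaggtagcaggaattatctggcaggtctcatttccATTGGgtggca

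TGANG followed by ATTGG with 15 to 25 bases between them, on either strand, was found in 13 of the 29 members searched (44.8%). It was found in 918 of 32851 promoters of the same 300 bases (2.79%). The 29 were members with a promoter entry outside chromosome 18, so Cd74 was not among them, while no chromosome was left out of the 32851. The 13 were H2-K1, H2-D1, B2m, H2-Aa, H2-Eb1, H2-Eb2, H2-DMb1, H2-DMb2, H2-Ob, H2-M3, H2-Q4, H2-Q6 and H2-Q7. In the windows of H2-K1, H2-D1, B2m, H2-M3, H2-DMb1 and H2-DMb2 the 2 groups of letters stood 20 bases apart, in H2-Aa 21, in H2-Eb1 19 and in H2-Ob 17. ATTGG alone was in 26 of the 29 members (89.7%) and in 37.4% of all promoters, and it is part of the longer pattern. For both patterns a member counted if any of its promoter entries matched, while the 32851 promoters were counted singly. H2-M9 and H2-Q2 held ATTGG without the longer pattern in this window. The letters and their spacing were chosen after the sequences had been seen, and a match describes letters only.

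The deposited counts on genes came to 25641329 to 29131708 per control library and 23810036 to 35864666 per AZ6983 library. The TMM factor was 0.837 for A5 and 0.987 to 1.07 in the other libraries, which raises the scaled levels of A5 against theirs. Summed CPM (gene counts scaled to the library size, which was itself adjusted by edgeR's TMM factors) of the smooth muscle list was 10224 to 17612 and of the endothelium list 746 to 946 over the 12 mice, so the defining genes of the vessel wall were present in every library. Reads that the counting placed on no gene made up 8.02 to 12.7% in controls and 11.2 to 14.9% in AZ6983 mice. This share is called the fraction of reads outside genes below. Which parts of genes were counted is not given in the sources used here, so the share may hold reads from introns. Mouse A4 stood apart: its thymocyte list summed to 1032 CPM and its thymic epithelium list to 122 CPM, where no other library exceeded 60.4 and 2.496 CPM. Mouse C2 had the highest B cell list, 52.4 CPM, against 6.73 to 25.3 CPM in the other mice. The thymus lies beside the thoracic aorta. Fold changes that rest on these 2 mice are given with and without them.

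In the comparison of AZ6983 with control, no MHC gene passed the test. Of the 40 members, 30 had enough counts to be tested, and 0 of them passed a false discovery rate of 10% in edgeR's quasi-likelihood test with Benjamini-Hochberg adjustment over all 15857 genes tested (all genes: 0%). Their adjusted p-values ran from 0.447 to 0.987. At an unadjusted p under 0.05, 3 of the 30 members were higher in AZ6983 mice (H2-M9, H2-K2 and Tap2), where 7.38% of all genes were, and 0 were lower, where 2.81% of all genes were. The log2 fold change was above 0 in 19 of the 30 members (63.3%) and in 52.4% of all genes tested. Its median was 0.05 over the members and 0.01 over all genes. The 30 members were only those with enough reads in at least some mice, and the other 10 are described by their counts below.

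The classes differed little from each other in their median log2 fold change. It was 0.09 for the 2 classical class I chains, 0.13 for the class I light chain and peptide supply (4 of 4 above 0) and 0.09 for the 13 non-classical genes tested (9 above 0). It was -0.02 for the 4 class II chains (1 above 0), -0.08 for the 4 tested genes of class II peptide loading (1 above 0), -0.04 for Cd74 and 0.06 for the 2 transactivators. No class had a member past the threshold, and no test of a difference between classes was made.

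**Figure D1:**
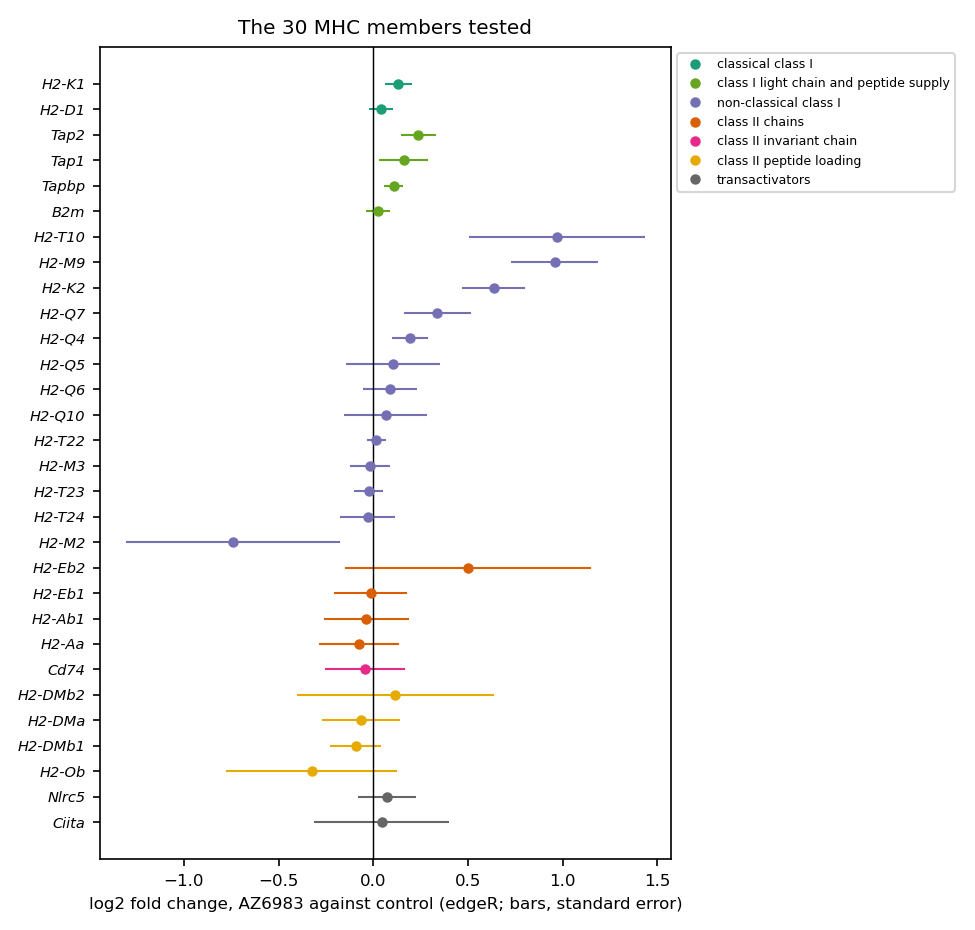
Log2 fold change of the 30 tested members in AZ6983 mice against controls (x axis, from edgeR) with its standard error (bars), coloured by class. H2-T10, H2-M9 and H2-K2 lie farthest to the right, between 0.64 and 0.97, H2-M2 lies farthest to the left at -0.74, and the class II genes straddle 0.

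Class I genes were the most abundant members. Per kb of annotated exon, the median control level was 595 CPM for B2m, 185 for H2-D1 and 154 for H2-K1, against 109 for Cd74, 88.7 for H2-Aa, 46.9 for H2-Ab1 and 41.4 for H2-Eb1. The ranges over the 6 control mice of H2-D1 (167 to 207 CPM per kb) and H2-K1 (145 to 190) overlapped, as did those of Cd74 (78.4 to 144) and H2-Aa (60.8 to 114), so neighbours in this order were not all apart. Summed over all 40 members, the level was 1747 to 2249 CPM in controls and 1841 to 2213 CPM in AZ6983 mice. That is 0.171 to 0.232% of all counts on genes. In whole aorta, a lower level can come from fewer cells of a type or from less RNA per cell, and these cannot be told apart.

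H2-K1, the K heavy chain, was at 240, 256 and 314 CPM in the lowest, median and highest control mouse and at 269, 287 and 308 CPM in AZ6983 mice. C2 lay above every AZ6983 mouse, and the other 5 controls lay below the median AZ6983 mouse. Its log2 fold change was 0.13 (SE 0.07) with an adjusted p of 0.530 in edgeR's quasi-likelihood test, and an exact permutation test of the 6 against 6 mice, two-sided, gave p = 0.0649. Scaled by total counts in place of TMM, the exact permutation p was 0.149. Without C2 the log2 fold change was 0.19 and the exact permutation p was 0.00649. Without C2, the adjusted p of H2-K1 over all genes was 0.297. With the fraction of reads outside genes as a covariate, H2-K1 had a log2 fold change of 0.0067 and an unadjusted p of 0.94.

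H2-D1, the D heavy chain, was at 351, 388 and 435 CPM in the lowest, median and highest control mouse and at 379, 396 and 436 CPM in AZ6983 mice. The groups covered nearly the same range. The log2 fold change was 0.04 (SE 0.06), with an exact permutation p of 0.435. B2m was at 481, 512 and 568 CPM in controls and at 503, 535 and 569 CPM in AZ6983 mice, again with overlapping groups, a log2 fold change of 0.02 (SE 0.06) and an exact permutation p of 0.587. B2m overlaps Patl2 on the opposite strand, and the strand setting of the counting is not given in the sources used here. These were among the steadiest members: the highest of the 12 mice had 1.18 times the CPM of the lowest for B2m, 1.24 times for H2-D1 and 1.31 times for H2-K1.

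Among the genes of peptide supply, Tap2, a subunit of the peptide transporter, was at 27.4, 33.7 and 36.3 CPM in the lowest, median and highest control mouse and at 34.0, 38.2 and 48.6 CPM in AZ6983 mice. A4 was the highest, and 4 of the 6 AZ6983 mice lay above every control. A5, 1 of the 4, had 916 counts against 1041 in the smaller library of C6, so it lay above C6 only after TMM scaling. For Tap2 the log2 fold change was 0.24 (SE 0.09), with an unadjusted p of 0.0217 and an adjusted p of 0.450 in edgeR's quasi-likelihood test. Without A4 it was 0.16 with an unadjusted p of 0.0449, and with the fraction of reads outside genes as a covariate 0.25 with an unadjusted p of 0.0873. Tapbp, the tapasin gene, was at 118, 125 and 133 CPM in controls and at 128, 134 and 147 CPM in AZ6983 mice, with 4 AZ6983 mice above every control. Here too A5 lay above C6 only after TMM scaling, with 3589 counts against 3905. Its log2 fold change was 0.11 (SE 0.05) and its adjusted p was 0.492 in the same test, and it was 0.063 without A5, the highest mouse.

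Tap1, the partner of Tap2, was at 12.2, 14.02 and 17.3 CPM in controls and at 13.8, 14.6 and 22.4 CPM in AZ6983 mice, where A4 alone lay above the controls. Its log2 fold change was 0.16 (SE 0.13), and 0.04 without A4. Tap1 likewise overlaps Psmb9 on the opposite strand, and Tap2 overlaps Gm20496 and Gm15821 there. Tapbp overlaps Zbtb22 on the same strand and Gm19412 on the opposite strand. The other members that overlap annotated genes are Cd74, Ciita, Nlrc5, H2-DMa, H2-Eb1, H2-Oa, H2-Q4, H2-T10, H2-T22, H2-T23, H2-T24 and H2-Ke6.

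**Figure D2:**
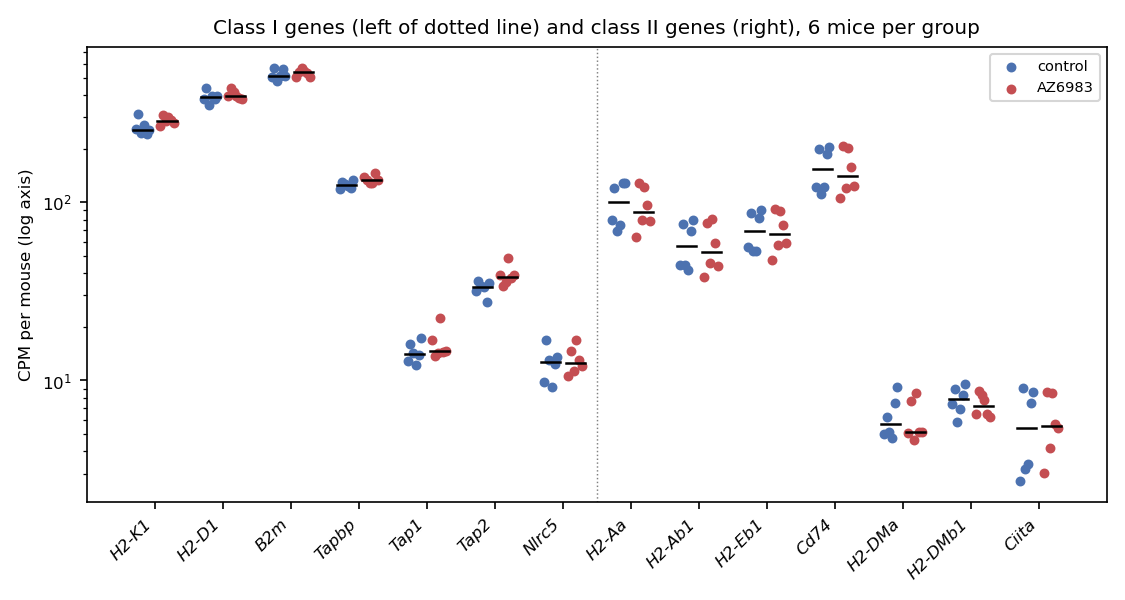
CPM per mouse (y axis, log scale) of class I genes, left of the dotted line, and class II genes, right of it, in 6 control (blue) and 6 AZ6983 (red) mice, with black lines at the group medians. The groups overlap for each gene shown, and the class II genes spread farther within each group than H2-K1, H2-D1 and B2m.

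Class II chains overlapped between the groups and varied more between mice. H2-Aa, the I-A alpha chain, was at 68.6, 100.02 and 129 CPM in the lowest, median and highest control mouse and at 63.7, 88.5 and 128 CPM in AZ6983 mice. H2-Ab1, its beta partner, was at 41.5, 56.8 and 79.2 CPM in controls and at 38.2, 52.5 and 80.9 CPM in AZ6983 mice. H2-Eb1, the I-E beta chain, was at 53.4, 69.1 and 90.4 CPM in controls and at 47.1, 66.6 and 91.6 CPM in AZ6983 mice. The members held no row for an I-E alpha chain, so these values do not show that an I-E molecule was made. For all 3 genes the groups spanned almost the same range, with the lowest mouse of all in the AZ6983 group (A1). Their log2 fold changes were -0.07 (SE 0.21), -0.04 (SE 0.23) and -0.01 (SE 0.19), and exact permutation tests gave p = 0.758, 0.851 and 0.913.

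Cd74, the invariant chain that guards the class II groove, was at 111, 154 and 204 CPM in the lowest, median and highest control mouse and at 106, 140 and 208 CPM in AZ6983 mice. Its log2 fold change was -0.04 (SE 0.21), with an exact permutation p of 0.814. For H2-Aa, H2-Ab1, H2-Eb1 and Cd74 the estimates shifted when a covariate was added, the fraction of reads outside genes. It was 8.02 to 12.7% in controls and 11.2 to 14.9% in AZ6983 mice, so the fit cannot fully separate it from treatment. Its relation to the class II levels over the mice was not tested. With it as a covariate the log2 fold change was -0.53 for H2-Aa (unadjusted p 0.062), -0.51 for H2-Ab1 (0.0888), -0.45 for H2-Eb1 (0.0692) and -0.51 for Cd74 (0.062), with an adjusted p of 0.9998 for each in edgeR's quasi-likelihood test. H2-DMa, the alpha chain of the peptide exchanger, was at 4.72, 5.67 and 9.22 CPM in controls and at 4.62, 5.15 and 8.49 CPM in AZ6983 mice. H2-DMb1, a beta chain of it, was at 5.86, 7.82 and 9.56 CPM in controls and at 6.23, 7.15 and 8.70 CPM in AZ6983 mice. Both overlapped between the groups, with log2 fold changes of -0.06 (SE 0.21) and -0.09 (SE 0.13). In the fit without A4 that of H2-DMa was -0.19.

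Mice differed by more within each group than between the groups. The highest of the 12 mice had 2.12 times the CPM of the lowest for H2-Ab1, 2.02 times for H2-Aa, 1.94 times for H2-Eb1 and 1.96 times for Cd74. The levels fell into 2 sets with a gap: H2-Ab1 was at 38.2 to 45.8 CPM in C1, C3, C4, A1, A3 and A6 and at 59.2 to 80.9 CPM in C2, C5, C6, A2, A4 and A5, which put 3 control and 3 AZ6983 mice in each set. In these sets H2-Aa was at 63.7 to 80.0 and at 97.1 to 129 CPM, H2-Eb1 at 47.1 to 58.7 and at 74.5 to 91.6 CPM, and Cd74 at 106 to 123 and at 157 to 208 CPM, so the same mice were low and high for all 4 genes. Ciita, the class II transactivator, was at 2.72 to 5.41 and at 5.68 to 9.01 CPM. H2-K1 did not divide the mice in this way, at 243 to 284 and at 240 to 314 CPM.

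Marker lists of class II-bearing cells were set beside these values. The dendritic cell list summed to 53.4 to 79.7 CPM in controls and to 50.8 to 78.0 CPM in AZ6983 mice. The 4 mice with the highest sums, C6, A2, C5 and C2, all belonged to the set with high H2-Ab1. A5, with the lowest sum, and A4, at 58.6 CPM, belonged to it too, while A3 of the low set had 65.5 CPM. The macrophage list was lowest in A5 (552 CPM) and A4 (644 CPM) and highest in A2 (893 CPM), all of the high set. A3 of the low set had 838 CPM. The B cell list was at 9.68 (A5) to 52.4 CPM (C2) in the high set and at 6.73 (C4) to 24.1 CPM (A1) in the low set. Because the 2 sets of mice were apart in H2-Ab1, no correlation with it is given over the 12 mice, and the part of these cells in the class II levels was not tested.

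**Figure D3:**
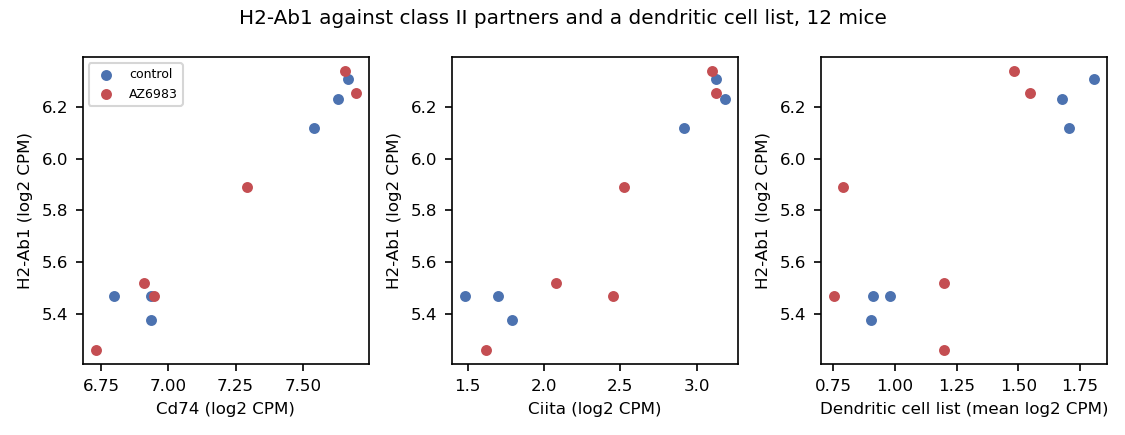
H2-Ab1 (y axis, log2 CPM) against Cd74, Ciita and the mean log2 CPM of a dendritic cell list (x axes) in 12 mice, control in blue and AZ6983 in red. The mice form a lower and an upper set of 6, each with 3 mice of either group.

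Non-classical class I genes held the members with the largest differences. H2-M9, a class I gene of the M region whose relatives are known from sensory neurons of the vomeronasal organ, was at 0.952, 1.65 and 2.28 CPM in the lowest, median and highest control mouse and at 2.34, 2.92 and 4.81 CPM in AZ6983 mice. Every AZ6983 mouse lay above every control. The values rest on 28 to 66 counts in controls and 63 to 147 in AZ6983 mice. H2-M9 had a log2 fold change of 0.96 (SE 0.23), with an adjusted p of 0.447 in edgeR's quasi-likelihood test. The exact permutation p of 0.00216 is the smallest that 6 against 6 mice can give. H2-M9 stands in the study's list of changed genes, which was drawn from these mice, so this describes the gene and is no independent evidence of its direction.

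The call on H2-M9 depended on the test. The study itself used DESeq2 at a threshold of 10% and lists the gene as higher, under the entry H2-M1/H2-M9. DESeq2 on the same counts gave H2-M9 an adjusted p of 0.0471 on every gene and 0.0516 on the filtered genes, both under 10%. By contrast, edgeR and limma gave 0.155 to 0.9998 over their other settings. When the fraction of reads outside genes was added as a covariate, H2-M9 had a log2 fold change of 0.92, with an unadjusted p of 0.0244. Left out singly, no mouse moved it below 0.81 or above 1.06. The gene lies at chr17:36639285-36642666 on the minus strand of GRCm38, overlaps no annotated gene, and shares 0% of the 75-base stretches of its longest annotated transcript with other genes.

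H2-K2, which the annotation calls a transcribed pseudogene of the K region, was at 0.967, 1.28 and 1.39 CPM in the lowest, median and highest control mouse and at 1.41, 1.85 and 2.42 CPM in AZ6983 mice. Here too every AZ6983 mouse lay above every control, though by a narrow margin. The log2 fold change was 0.64 (SE 0.17), with an unadjusted p of 0.00209 and an adjusted p of 0.447 in edgeR's quasi-likelihood test. H2-K2 lies at chr17:33974659-33978827 on the minus strand and shares 5.96% of its 75-base stretches with other genes, H2-T22 among them. Reads without a unique alignment were kept apart from the gene counts (18.1 to 23.2% per library). The 26 to 91 counts of H2-K2 may thus lack reads from shared stretches. H2-M9 and H2-K2 were the 2 of 30 tested members whose groups did not overlap with AZ6983 higher, where 0.259% of all genes tested did not, and 0 members did so with AZ6983 lower, where 0.151% of all genes did.

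H2-M2, another M region gene, was the member with the lowest fold change. It was at 0.967, 1.496 and 2.82 CPM in the lowest, median and highest control mouse and at 0.149, 0.786 and 3.11 CPM in AZ6983 mice. The AZ6983 group was split, with A4 above every mouse and 4 of 6 mice below every control. On the log2 scale the fold change was -0.74 (SE 0.57), with an adjusted p of 0.630 in edgeR's quasi-likelihood test. Without A4 it was -1.48, with an unadjusted p of 0.00714 and an adjusted p of 0.439.

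**Figure D4:**
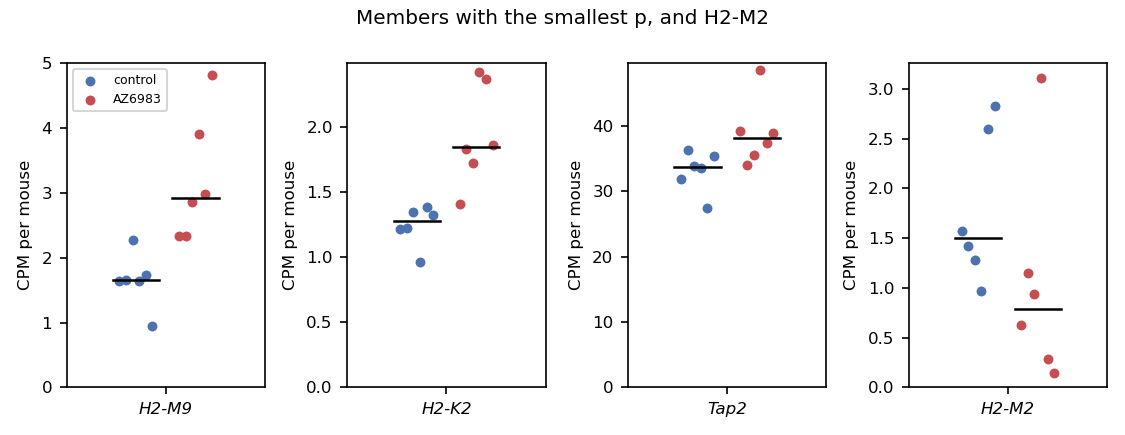
CPM per mouse (y axes, from 0) of H2-M9, H2-K2, Tap2 and H2-M2 in 6 control (blue) and 6 AZ6983 (red) mice, with black lines at the group medians. For H2-M9 and H2-K2 the lowest AZ6983 mouse, at 2.34 and 1.41 CPM, lies above the highest control, at 2.28 and 1.39 CPM, and for H2-M2 A4 stands above the other AZ6983 mice.

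The better expressed non-classical genes overlapped between the groups. H2-T23 (Qa-1), which presents leader peptides of other class I chains to natural killer cells, was at 52.9, 56.1 and 64.3 CPM in the lowest, median and highest control mouse and at 47.7, 57.5 and 63.8 CPM in AZ6983 mice. H2-M3, which binds formylated peptides of bacteria and mitochondria, was at 8.21, 9.06 and 10.95 CPM in controls and at 7.19, 9.10 and 10.9 CPM in AZ6983 mice. The log2 fold change was -0.02 for both (SE 0.08 for H2-T23 and 0.11 for H2-M3).

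H2-Q4 was at 19.3, 22.2 and 26.1 CPM in controls and at 22.2, 26.6 and 29.0 CPM in AZ6983 mice. Again 4 AZ6983 mice were above all controls, among them A5, whose 667 counts exceeded the 766 of C6 only after TMM scaling. The fitted log2 fold change was 0.19 (SE 0.10, adjusted p = 0.507 in edgeR's quasi-likelihood test). H2-Q7, which encodes Qa-2, had a log2 fold change of 0.34 (SE 0.18, adjusted p = 0.527). Without C2 that of H2-Q4 was 0.24 and that of H2-Q7 0.43, and with the fraction of reads outside genes as a covariate they were -0.063 and 0.062. H2-Q5, H2-Q6, H2-Q10, H2-T22 and H2-T24 had log2 fold changes of -0.03 to 0.10, with H2-Q5 at 0.29 in the fit without C2, its highest mouse. H2-Q5, H2-Q6, H2-Q7, H2-Q10, H2-T10 and H2-T22 share 13.5 to 20.7% of their 75-base stretches with other genes, so their counts may lack reads from those stretches. H2-Q10, a secreted class I chain known from the liver, was highest in A5 at 44.7 CPM, where the other 11 mice had 15.1 to 28.3 CPM.

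A4 was the highest of all mice in 16 of the 40 members, and for several of them by far. H2-Q2 had 440 counts in A4 and 0 to 11 in the others, H2-Q1 had 31 against 0 to 1, and H2-T10, a ligand of gamma delta T cells, had 251 against 21 to 42. H2-T3, the thymus leukaemia antigen, had 9 counts in A4 and 0 in every other mouse. The log2 fold change of H2-T10 was 0.97 (SE 0.46) with A4 and 0.20 without it. The thymocyte and thymic epithelium lists were also highest in A4, at 1032 and 122 CPM. That these lists and genes were high together rests on this 1 mouse. The part of the lists in these genes was not tested beyond these fits.

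A second group of class II genes, which B cells are known to use, was uneven between mice in each group. H2-Ob, a chain of the H2-DM inhibitor H2-O, had 127 counts in C2 and 76 in C6, where the other controls had 15 to 37 and the AZ6983 mice 26 to 71. H2-Oa, its partner, had 26 in C2, 31 in C6 and 52 in A4, against 4 to 14 in the other mice. H2-DMb2, a second H2-DM beta chain, had 75 in C2, 72 in C6 and 143 in A4, against 16 to 46 in the others. H2-Eb2, a second I-E beta chain, had 38 in C2 and 78 in A4, against 4 to 18. H2-Ob was highest in C2, and H2-Oa, H2-DMb2 and H2-Eb2 in A4. C2 and C6 had the highest B cell lists, at 52.4 and 25.3 CPM, while A4 had 18.0 CPM, below A1 with 24.1 CPM. The log2 fold changes of H2-Ob, H2-DMb2 and H2-Eb2 were -0.33 (SE 0.45), 0.12 (SE 0.52) and 0.50 (SE 0.65). Without C2 they were 0.22, 0.46 and 1.23, and without A4 those of H2-DMb2 and H2-Eb2 were -0.40 and -0.30, so their direction rested on single mice. The 2 H2-DM beta genes share 19.1 and 19.9% of their 75-base stretches.

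**Figure D5:**
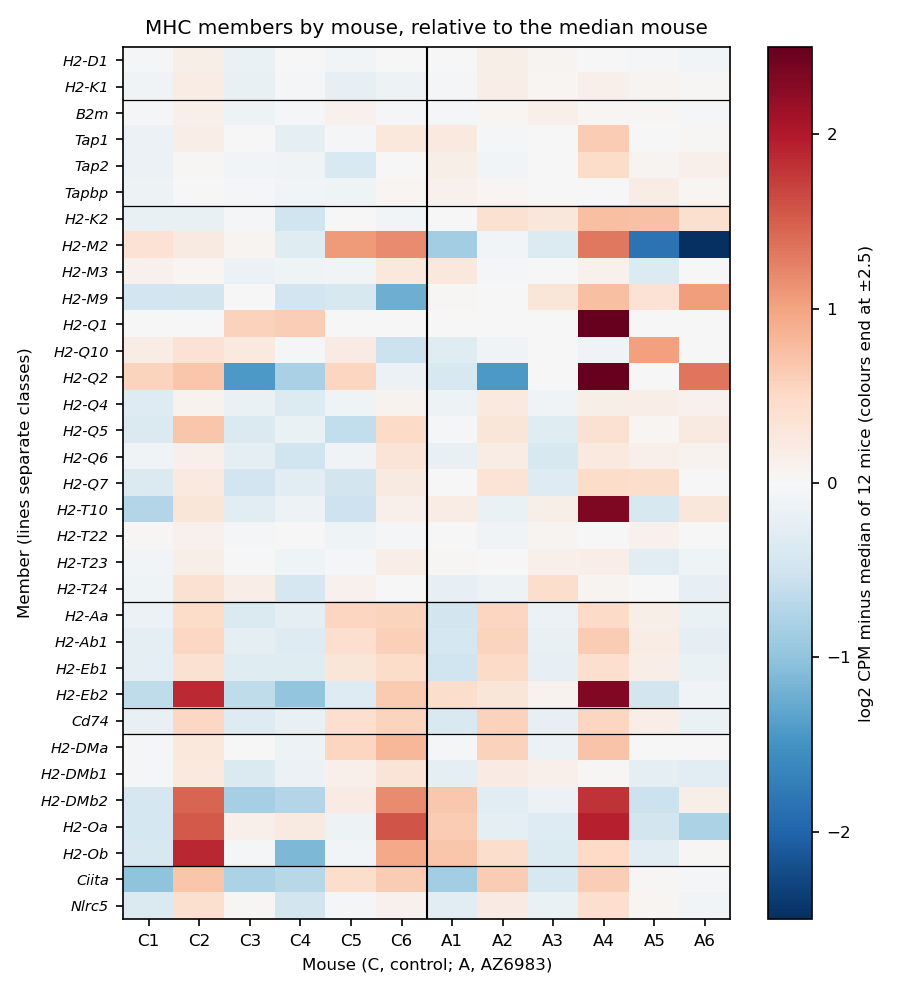
Log2 CPM of members with at least 20 counts in some mouse (rows, with lines between classes) in 12 mice (columns), relative to the median mouse of each gene, where colours end at 2.5 in either direction. A4 stands out for H2-Q1, H2-Q2, H2-T10 and H2-Eb2, and C2 for H2-Ob and H2-Eb2. The mice C2, C5, C6, A2, A4 and, less so, A5 are high for H2-Aa, H2-Ab1, H2-Eb1 and Cd74.

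Of the 10 members not tested, the remaining ones were near 0 counts. H2-M11 had 0 to 2 counts in controls and 2 to 6 in AZ6983 mice, and an unadjusted p of 0.00687 (adjusted p = 0.529) in edgeR's quasi-likelihood test without a filter on low counts. H2-Bl, H2-M10.3, H2-M10.5 and H2-M5 had at most 3 counts in any mouse, and H2-Ke6 had 0 to 8, with 94.2% of its stretches shared with another gene model. None of these 6 genes passed the 10% threshold in that fit, and the counts are too few to describe a level.

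The transactivators did not pass the test. Ciita was at 2.72, 5.44 and 9.01 CPM in the lowest, median and highest control mouse and at 3.01, 5.54 and 8.67 CPM in AZ6983 mice. Its log2 fold change was 0.04 (SE 0.36) and its exact permutation p 0.779. Without C2, its highest mouse, the log2 fold change of Ciita was 0.22, and with the fraction of reads outside genes as a covariate it was -0.85 (unadjusted p 0.0399, adjusted p 0.9998 in edgeR's quasi-likelihood test). Nlrc5 was at 9.15, 12.7 and 16.8 CPM in controls and at 10.6, 12.6 and 16.9 CPM in AZ6983 mice. The fitted log2 fold change was 0.07 (SE 0.15) and the exact permutation p was 0.626. Without A4, its highest mouse, Nlrc5 had a log2 fold change of -0.015. Both covered the same range in either group.

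Nlrc5 was compared with the class I genes it is known to drive. Over the 12 mice, Pearson's r of Nlrc5 with Tap1 was 0.657 (permutation p = 0.0173, adjusted p = 0.138 over the 16 correlations computed for 10 relations) and Spearman's rho was 0.552 (permutation p = 0.0659, adjusted p = 0.443). Without C4 and A4, the 2 mice farthest from the median of Nlrc5, r was 0.300 (permutation p = 0.398), so the relation rests on those mice. Within controls r was 0.856 (exact permutation p = 0.0389) and within AZ6983 mice 0.514 (exact permutation p = 0.324). With H2-K1, Nlrc5 had an r of 0.506 (permutation p = 0.0941, adjusted p = 0.301) and a rho of 0.490 (permutation p = 0.108). Without C4 and A4 that r was 0.494, within controls 0.391 and within AZ6983 mice 0.859 (exact permutation p = 0.0306).

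B2m and H2-K1, the 2 chains of 1 molecule, had an r of 0.507 (permutation p = 0.0932, adjusted p = 0.301) and a rho of 0.490 (permutation p = 0.111). Without C2 and A3 the r of B2m and H2-K1 was 0.339. It was 0.511 within controls and 0.502 within AZ6983 mice. The thymocyte list and H2-K1 had an r of 0.304 (permutation p = 0.351, adjusted p = 0.562) and a rho of 0.301 (permutation p = 0.341), and an r of 0.118 without C4 and A4, 0.232 within controls and 0.118 within AZ6983 mice.

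Other genes of the 2 pathways gave a like picture. Of 13 genes of the immunoproteasome and of class I peptide processing, all tested, 0 passed the threshold. At an unadjusted p under 0.05, where 7.38% of all genes were higher, 1 of the 13 was higher. It was Psmb9, an interferon-inducible proteasome subunit, at 5.75, 6.33 and 9.37 CPM in the lowest, median and highest control mouse and at 7.11, 8.44 and 14.1 CPM in AZ6983 mice. The groups overlapped. For Psmb9 the log2 fold change was 0.41 (SE 0.17), with an adjusted p of 0.472 in edgeR's quasi-likelihood test, and without A4 it was 0.24 with an unadjusted p of 0.0834. Psmb8, its neighbour in the same complex, had a log2 fold change of 0.32 (SE 0.15, adjusted p = 0.497), and 0.16 without A4, its highest mouse. The median log2 fold change of these 13 genes was 0.05.

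Of 15 genes of class II processing and control, 0 passed the threshold and 0 had an unadjusted p under 0.05 in edgeR's quasi-likelihood test, with a median log2 fold change of 0.01. With the fraction of reads outside genes as a covariate 2 were lower at an unadjusted p under 0.05, Ifi30 at -0.36 and March1 at -0.39, both with an adjusted p of 0.9998. Of all genes, 467 had an unadjusted p under 0.05 in that fit, in either direction. Among the 15 genes Ctss, the protease that trims the invariant chain, was at 90.1, 146 and 221 CPM in the lowest, median and highest control mouse and at 46.9, 93.8 and 217 CPM in AZ6983 mice. The fold change of Ctss was -0.58 on the log2 scale (SE 0.32, adjusted p = 0.539), and -0.99 with that covariate (unadjusted p 0.0556). Rfx5, which binds the X box, had a log2 fold change of 0.12 (SE 0.13). Of 11 genes of interferon gamma signalling, 10 were tested and 0 passed either threshold, with a median of 0.06. Without A4 Irf2 was higher at an unadjusted p of 0.0364 in edgeR's quasi-likelihood test (0.31 on the log2 scale, adjusted p 0.498). In that fit 1506 of all genes had an unadjusted p under 0.05, in either direction. Irf1, a transcription factor induced by interferon gamma, had a log2 fold change of 0.09 (SE 0.08), and Ifng itself had at most 2 counts in any mouse. Of 7 class I-like molecules outside the H2 symbols, 5 were tested and 0 passed either threshold, with a median of -0.02.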

How the data were processed

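Total RNA of thoracic aorta was depleted of ribosomal RNA, made into stranded libraries and sequenced in pairs. Per the labels' processing notes, the authors used CASAVA 1.8.2, STAR 2.5.2b and HTSeq 0.6.1p1 with the mm10 build, and deposited raw read counts per gene. The annotation and the strand setting of the counting are not given in the sources used here. The labels name separate mice, and mice within a group were numbered in accession order. The column of A1 shows only part of its mouse's label and was matched by those digits. No library was a copy of another: over 66 pairs, chi-square per degree of freedom was 12.0 to 226.

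The test was edgeR's quasi-likelihood test (edgeR 4.0.16, R 4.3.3) after its default filter on low counts and TMM scaling, with Benjamini-Hochberg adjustment over 15857 genes and a threshold of 10%. Log2 CPM used a prior count of 2. Single members were tested by exact permutation over mice, and relations over 12 mice with 100000 resamples. Alternatives were DESeq2 1.42.0, limma 3.58.1, other scalings, filters and covariates, and each mouse left out. The scripts were tested on simulated data. Levels per length, positions and stretches of 75 bases shared between genes came from the GENCODE M21 annotation of GRCm38, and promoters from RefSeq. Rows of reads on no gene stayed out of library sizes.

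The named genes were the classical class I and class II chains, their partners and controllers, the gene in the study's list, each member with an unadjusted p under 0.05 or groups without overlap, and a few genes of the pathway lists. Members, lists and tests were chosen with earlier results of these data known. Other members, such as H2-M2, H2-Q7 and the genes high in A4 or C2, were named after their values were seen. The pathway fits without A4 or with a covariate were added after seeing the data. Correlations with H2-Ab1 within 2 sets of mice, also added then, are not given because the sets were cut on H2-Ab1 itself.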

Additional observations from a re-analysis of the deposited data

Results flagged for a closer look

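In 4 of the 74 groups of 6 mice tested, 1 mouse lay farther from the others than Dixon's 95% critical value for 6 samples allows, where chance gives about 1 in 20, or 3.7. In AZ6983 mice H2-T10 was at 2.75 log2 CPM in A4, and at 0.02 to 0.71 in the other 5. H2-Eb2 was at 1.10 log2 CPM in A4, and at -1.66 to -0.76 in the other AZ6983 mice. H2-Q10 was at 5.49 log2 CPM in A5, and at 4.17 to 4.48 in the other AZ6983 mice. In controls H2-K2 was at 0.05 log2 CPM in C4, and at 0.37 to 0.54 in the other 5, and without C4 the log2 fold change of H2-K2 was 0.57 with an unadjusted p of 0.0054 in edgeR's quasi-likelihood test. The causes of these values were not tested.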

How the results depend on the processing

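With each mouse left out in turn, 0 of 30 members passed 10% in edgeR's quasi-likelihood test, 3 to 7 were higher at an unadjusted p under 0.05 (6 without C2 or without C6, 7 without A3) and 0 to 1 lower (H2-M2, without A4). Of all genes, 1030 (without C1) to 2216 (without A1) had an unadjusted p under 0.05 in these fits, in either direction. It was 2010 without C2, 1896 without C6, 1712 without A3 and 1506 without A4. At a 5% threshold, and with other scalings, filters, limma or a covariate, 0 members passed too. DESeq2 called 1, H2-M9, on every gene and on the filtered genes, and 92 and 84 of all genes. Members higher at an unadjusted p under 0.05 numbered 5 in DESeq2 on every gene and 6 without a filter on low counts, against 3. All 40 members entered these 2 fits, against 30 in the main fit. Of all genes, 1966 and 2364 had an unadjusted p under 0.05 in them, in either direction. As for lower members, 1 was lower with limma's quality weights (H2-M2), the fraction of reads outside genes as a covariate (Ciita) and the thymocyte score as a covariate (H2-M2). In these fits 2449, 467 and 1308 of all genes had an unadjusted p under 0.05, in either direction. H2-M9 and H2-K2 kept an unadjusted p under 0.05 in all settings where they were tested, and 10 of the 30 members, both among them, kept the sign of their log2 fold change in all. The fraction of reads outside genes as a covariate turned the sign of B2m (-0.032), Ciita (-0.85), H2-D1 (-0.046), H2-DMb2 (-0.26), H2-Eb2 (-0.13), H2-M3 (0.032), H2-Q4 (-0.063), H2-Q5 (-0.37), H2-Q6 (-0.15) and Nlrc5 (-0.27). Without turning the sign, it moved H2-Ob from -0.33 to -0.95 and H2-DMb1 from -0.09 to -0.29. The thymocyte score turned Ciita (-0.078), H2-DMb2 (-0.41), H2-Eb2 (-0.22) and Nlrc5 (-0.016). Limma with quality weights turned H2-M3 (0.039), H2-Ob (0.057) and H2-Q10 (-0.13), limma alone H2-Ob (0.016), and the fit without a filter H2-T22 (-0.0039). The causes were not tested. With each mouse left out, signs of 17 members turned at least once, over log2 fold changes of B2m -0.011 to 0.0493, Cd74 -0.15 to 0.0413, Ciita -0.10 to 0.22, H2-Aa -0.18 to 0.018, H2-Ab1 -0.16 to 0.0599, H2-DMa -0.19 to 0.0676, H2-DMb2 -0.40 to 0.46, H2-Eb1 -0.11 to 0.0768, H2-Eb2 -0.30 to 1.23, H2-M3 -0.0729 to 0.0272, H2-Ob -0.52 to 0.22, H2-Q10 -0.21 to 0.14, H2-Q5 -0.00389 to 0.29, H2-T22 -0.0224 to 0.0402, H2-T23 -0.0614 to 0.0028, H2-T24 -0.13 to 0.045, Nlrc5 -0.0147 to 0.18. Differences of mean log2 CPM in the exact tests ranged over B2m 0.0021 to 0.0497, Cd74 -0.15 to 0.0484, Ciita -0.0577 to 0.29, H2-Aa -0.17 to 0.0379, H2-Ab1 -0.15 to 0.0652, H2-D1 0.0138 to 0.0762, H2-Eb1 -0.10 to 0.0872, H2-K1 0.11 to 0.19, H2-M9 0.78 to 1.02, Nlrc5 -0.000221 to 0.17, and that of H2-K1 passed p = 0.05 without C2 (0.19) and without A1 (0.16, exact permutation p = 0.0498). The r of Nlrc5 with Tap1 lost an unadjusted p under 0.05 without A4 (0.506), within AZ6983 mice (0.514) and without C4 and A4 (0.300), and that of Nlrc5 with H2-K1 gained it within AZ6983 mice (0.859). Sums were also taken without the H2-Q and H2-T genes, H2-K2 and H2-M9. The median sum of non-classical class I genes was then 11.2 in place of 190 CPM for controls. For the AZ6983 group it was 10.1 in place of 199 CPM, and that of all members 1812 in place of 2012 CPM. This choice did not follow the measured sharing of 75-base stretches. H2-M9 and H2-T3 (0%) and H2-T24 (0.47%) were left out, while H2-DMb1 (19.1%) and H2-DMb2 (19.9%) stayed in. The lower sums thus do not show how much of the level rests on shared reads. No paired analysis was possible because the mouse numbers are not shared between the groups.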
